A study of Mus musculus with 4 samples.

Results

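The erythroid genes described here are Alas2, Hba-a1 and Hbb-b2, measured in RNA of the gastrocnemius, a mixed but largely fast calf muscle, of mice. They were taken as every probe set of the array whose platform annotation gives 1 of these 3 symbols alone. This gave 3 probe sets, 1 per gene, out of 12422 probe sets and 8251 genes. All 3 lay at or above the floor of 100 signal units, below which signals were not ordered, on all 4 arrays. Each of 4 MG-U74Av2 oligonucleotide arrays carried RNA of muscles pooled from 10 mice. The groups were mice adrenalectomized 1 week before, adrenalectomized mice given 0.1 mg of cortisol into the peritoneum and taken 3 h later, adrenalectomized mice given the same injection and taken 24 h later, and intact mice. The sources used here did not give strain, sex, age, perfusion or a vehicle injection, and the interval since surgery was given for the uninjected adrenalectomized mice alone. With 1 array per group no test was possible, and the number of arrays limited the precision.

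Red cells carry oxygen on haemoglobin, a tetramer of alpha-globin and beta-globin chains that each hold a haem. Haem synthesis starts with 5-aminolevulinate synthase, and red cell precursors use a form of their own, encoded by Alas2. Mature red cells have no nucleus, but reticulocytes, the youngest red cells in blood, still hold globin messenger RNA, so that blood left in a muscle contributes these transcripts to its RNA. Glucocorticoids are known to act on red cell precursors in the marrow and spleen. In RNA of whole muscle, a difference in the number of such cells and a difference in their RNA content cannot be told apart.

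The median scaled signal of the arrays lay between 189 and 199.6, and 63.0% to 64.4% of probe sets reached the floor. The arrays were of 1 chip lot and were processed in fluidics modules 2, 3, 4 and 1 for adrenalectomized, 3 h, 24 h and intact, and the effects of module, pool and group cannot be told apart. Skeletal muscle markers fitted the labelled tissue: 13 of 14 reached the floor on all 4 arrays, the exception being Myh2, and their summed signal differed 1.08-fold between the highest and the lowest array. The brightest of them after adrenalectomy was Myh4, the fast IIb myosin gene, at 34919 against 33475 in intact mice. Single fibre markers did differ: the slow myosin gene Myh7 had 9419.7 after adrenalectomy, 2342 at 3 h, 2325 at 24 h and 8238 in intact mice, 4.02-fold lower at 3 h and 4.05-fold lower at 24 h than after adrenalectomy alone. In place of replicates, an error was taken from genes with 2 probe sets, as the SD of the difference between their log2 ratios divided by the square root of 2. For adrenalectomized against intact mice this SD was 0.30 for genes with a mean signal under 300, which holds for Alas2, and 0.17 for genes with a mean signal of 1000 or more, which holds for both globin genes. It contains no variation between mice, pools or dissections.

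Alas2, the erythroid form of the enzyme that begins haem synthesis, had a signal of 225 after adrenalectomy, 198 at 3 h, 187 at 24 h and 122 in intact mice. The intact array was thus the lowest, and the 3 arrays of adrenalectomized mice lay within 1.20-fold of each other. Hba-a1, which encodes an adult alpha-globin chain, had 6496 after adrenalectomy, 6956 at 3 h, 6115 at 24 h and 5246 in intact mice. Its intact signal was again the lowest, and the other arrays lay within 1.14-fold of each other. Hbb-b2, which encodes an adult beta-globin chain, had 1745 after adrenalectomy, 1906 at 3 h, 1927 at 24 h and 1193 in intact mice. The intact array was the lowest here too, with the other 3 within 1.10-fold of each other. The intact array was the lowest of the 4 for 24.1% of the 5452 genes at or above the floor on all arrays, for 28.3% of those with a mean signal under 300 and for 19% of those with a mean signal of 1000 or more.

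**Figure D1:**
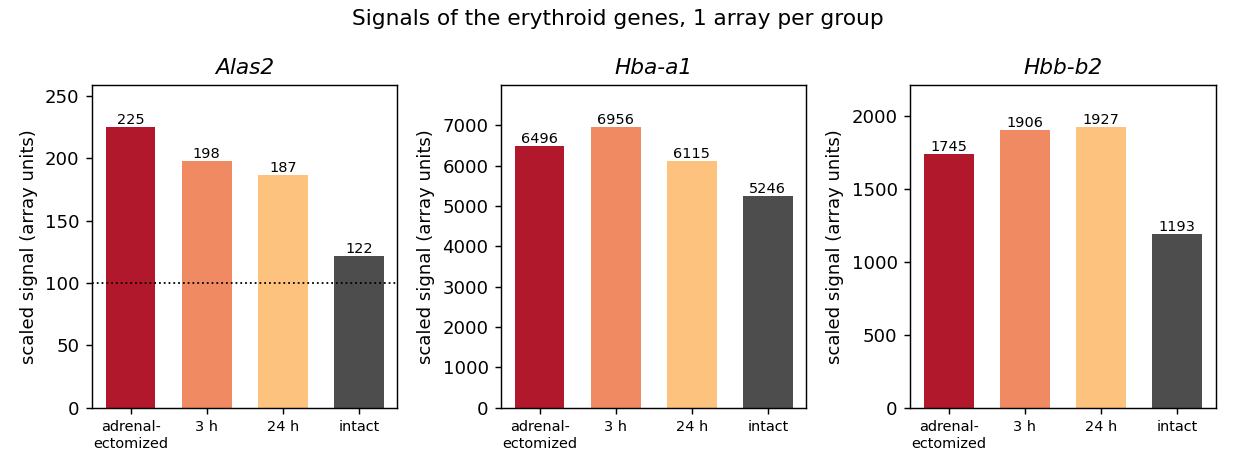
Scaled signals (array units, axis from 0) of Alas2, Hba-a1 and Hbb-b2 on the arrays of adrenalectomized mice, adrenalectomized mice 3 h and 24 h after cortisol, and intact mice. Each bar is 1 array of 10 pooled mice, so there are no error bars; the dotted line in the Alas2 panel is the floor of 100. In each panel the intact bar is the shortest, at 122, 5246 and 1193.

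As background, the sequence before the gene starts is shown where the RefSeq table (GRCm38.p6) held it. That was for 2 of the 3 genes, Alas2 and Hba-a1. Each run is the 250 bases before the gene start, plus strand, 5′ to 3′. Capitals mark GATA (the core bound by GATA1, the master regulator of red cell genes), CACCC (the core bound by the erythroid factor KLF1), CCAAT and TATAA, each searched on both strands, with overlapping matches counted.
Alas2, chrX:150547167-150547416: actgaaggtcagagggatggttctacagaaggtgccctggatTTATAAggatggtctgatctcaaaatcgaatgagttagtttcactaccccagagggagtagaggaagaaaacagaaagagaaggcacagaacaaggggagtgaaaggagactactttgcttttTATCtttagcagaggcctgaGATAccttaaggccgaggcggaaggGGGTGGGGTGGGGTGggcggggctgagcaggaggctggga
Hba-a1, chr11:32283422-32283671: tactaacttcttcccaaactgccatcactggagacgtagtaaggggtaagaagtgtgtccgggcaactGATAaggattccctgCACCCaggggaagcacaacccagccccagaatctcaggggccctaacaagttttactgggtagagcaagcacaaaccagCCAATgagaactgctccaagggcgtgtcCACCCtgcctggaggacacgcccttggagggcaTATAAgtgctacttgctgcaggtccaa
The Alas2 window held 2 matches of GATA, which begin 85 and 65 bases before the start, and 3 of CACCC, all on the reverse strand as GGGTG and side by side from 40 bases before the start. Its 2 matches of TATAA overlap each other as TTATAA and begin 208 bases before the start, while CCAAT was not found in these 250 bases. The Hba-a1 window held 1 match of GATA at 182 bases before the start, 2 of CACCC at 167 and 60 bases, 1 of CCAAT at 88 bases and 1 of TATAA at 27 bases. Such short letters are common: among 32851 windows of the same length, 53.6% held GATA, 52.0% CACCC, 33.8% CCAAT and 22.8% TATAA, while 6.92% held 3 or more matches of CACCC. These matches describe the sequence and say nothing about binding, and any link to the signals was not tested.

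Of the 3 genes, Alas2 was past 1.5-fold in adrenalectomized against intact mice, at 1.85-fold, or a log2 ratio of 0.89. Of all 6112 genes, 2.67% reached 1.5-fold in that direction, and among the 2133 with a mean signal under 300 the share was 5.67%. At least 1.5-fold lower were 2.24% of all genes. The Alas2 ratio was 2.94 times its probe set error SD. It was not measurable with a floor of 200, where the log2 ratio was 0.17, because 1 of the 2 signals lay under that floor and the other was 225. Hbb-b2 was 1.46-fold higher, a log2 ratio of 0.55 and 3.19 times its error SD, and it passed 1.5-fold under scaling to ribosomal proteins, at 0.64. Among the 1535 genes with a mean signal of 1000 or more, 0.717% were at least 1.5-fold higher. Hba-a1 was 1.24-fold higher, a log2 ratio of 0.31 and 1.79 times its error SD. A log2 ratio at least as high was found for 0.540% of all genes in the case of Alas2, 3.34% for Hbb-b2 and 12.2% for Hba-a1.

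The 3 genes differed among themselves by amounts near the error. After adrenalectomy the log2 ratio of Alas2 exceeded that of Hba-a1 by 0.58, with an SD of 0.35 from the probe set error. It exceeded that of Hbb-b2 by 0.34, with the same SD of 0.35. The Hba-a1 ratio minus the Hbb-b2 ratio was -0.24, with an SD of 0.24. Only the first of these 3 differences was larger than 1.5 times its SD.

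The injected mice were compared with the same intact array, so the next values share their reference with those above. At 3 h against intact, Alas2 was 1.62-fold higher and Hbb-b2 1.60-fold higher, while Hba-a1 was 1.33-fold higher. At least 1.5-fold higher were 5.7% of all genes, 8.9% of those with a mean signal under 300 and 3% of those with a mean signal of 1000 or more, while 4.25% were at least 1.5-fold lower. The 24 h array exceeded the intact one 1.62-fold for Hbb-b2, 1.54-fold for Alas2 and 1.17-fold for Hba-a1. Here 4.04% of all genes were at least 1.5-fold lower. The share at least 1.5-fold higher was 5.95% of all genes, 11.6% of genes with a mean signal under 300, and 0.847% of genes with a mean signal of 1000 or more, the class of Hbb-b2. The Alas2 call at 24 h ended under median scaling and under quantile normalization, both with a log2 ratio of 0.54, and both Alas2 calls ended with a floor of 200, where the log2 ratios were 0. Hba-a1 and Hbb-b2 differed most at 24 h against intact, where the Hba-a1 ratio minus the Hbb-b2 ratio was -0.47 with an SD of 0.37.

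**Figure D2:**
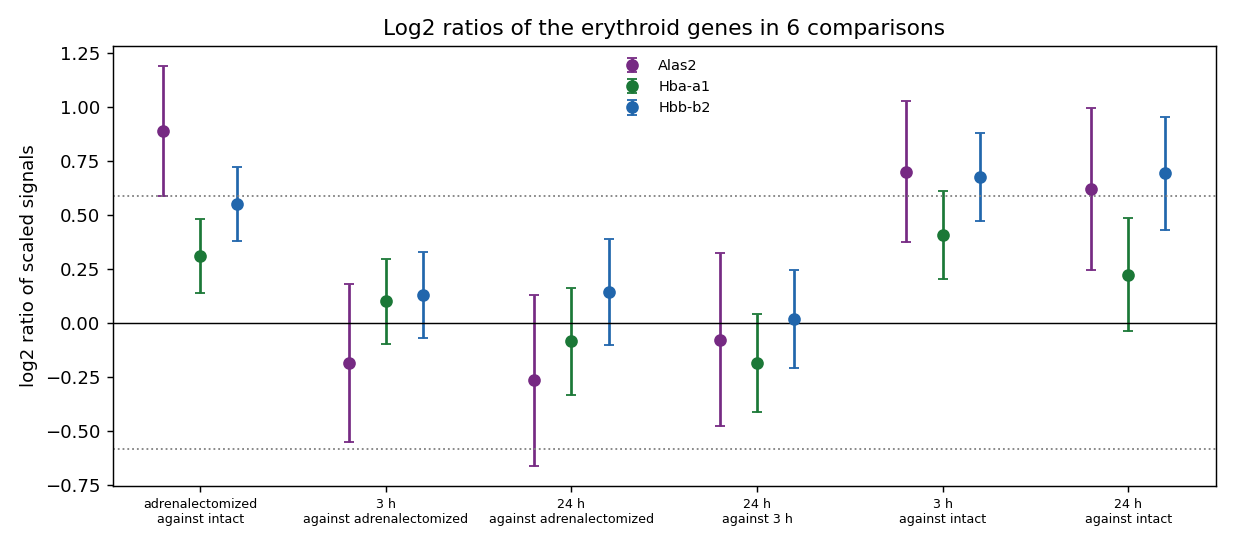
Log2 ratios of scaled signals (vertical axis) of Alas2, Hba-a1 and Hbb-b2 in the 6 comparisons (horizontal axis). Bars are 1 SD of the probe set error for genes of the same brightness, not a replicate error, and dotted lines mark 1.5-fold. The ratios against intact lie between 0.22 and 0.89, and those among the 3 arrays of adrenalectomized mice lie between -0.27 and 0.14.

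The arrays with and without cortisol differed little in these genes. At 3 h against adrenalectomized mice the log2 ratio was -0.19 for Alas2, 0.10 for Hba-a1 and 0.13 for Hbb-b2, the last 2 of which were -0.05 and -0.03 under scaling to ribosomal proteins. With the 24 h array over the adrenalectomized one it was -0.27 for Alas2, -0.09 for Hba-a1 and 0.14 for Hbb-b2. Between 24 h and 3 h it was -0.08 for Alas2, -0.19 for Hba-a1 and 0.02 for Hbb-b2, the last of which was -0.03 under median scaling. All 9 values were smaller than 1 SD of the probe set error, which was 0.37 to 0.40 for Alas2 and 0.20 to 0.25 for the globin genes, so no order among these 3 arrays can be given. None of the 3 genes was past 1.5-fold here. Over all genes, the shares past 1.5-fold in the higher direction were 5.07%, 5.49% and 5.76% in the same 3 comparisons, and 4.75%, 4.51% and 5.88% in the lower direction.

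Other globin probe sets on the array are annotated to more than 1 globin gene and lie outside the choice made here, but they read the same family. Probe set 101869_s_at, annotated to Hbb-bt, Hbb-bs, Hbb-b2 and Hbb-b1, had 9807 after adrenalectomy, 10724 at 3 h, 10384 at 24 h and 7658 in intact mice. It was 1.28-fold higher after adrenalectomy, against 1.46-fold for Hbb-b2. Probe set 162457_f_at, annotated to Hba-a2 and Hba-a1, had 1987 after adrenalectomy, 2156 at 3 h, 1774 at 24 h and 1658 in intact mice. It was 1.20-fold higher after adrenalectomy, against 1.24-fold for Hba-a1. On both sets the intact array was the lowest, although at 24 h the alpha-globin set was 1.07-fold above it. A further beta-globin set, 160560_at, read at most 8.29 on any array, far below the floor, and gave no ratio. Laboratory strains carry different arrangements of the adult beta-globin genes, and the reference strain C57BL/6J carries Hbb-bs and Hbb-bt where other strains carry Hbb-b1 and Hbb-b2. Hba-a1 likewise has a near-identical neighbour, Hba-a2. The signals named Hbb-b2 and Hba-a1 may therefore include transcripts of these related genes. The suffix of the Alas2 probe set, 92768_s_at, marks probes that can be shared with other transcripts.

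**Figure D3:**
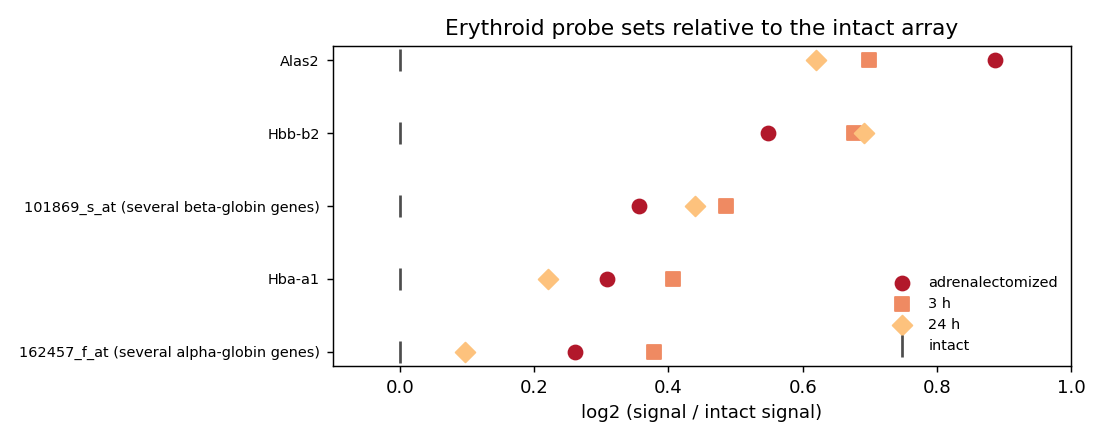
Log2 of the signal over the intact signal (horizontal axis) for the 3 genes and for the 2 globin probe sets above the floor that are annotated to several genes. Each point is 1 array. For the 5 probe sets, all points of adrenalectomized mice, with or without cortisol, lie right of the intact mark at 0, from 0.10 to 0.89.

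The log2 ratios of the other haem synthesis genes after adrenalectomy lay on both sides of 0. Of 12 listed genes 10 were on the array, and all 10 reached the floor on all 4 arrays. The ratio of adrenalectomized against intact mice was positive for 5 and negative for 5, with a median of 0.06 beside 0.01 for all genes, and 0 of 10 passed 1.5-fold. On the brightest probe sets the intact array was the lowest for 4 of the 10, Fech, Alad, Urod and Tspo. The share was 24.1% over all genes at or above the floor on all arrays. For Urod the intact signal was 670.2, beside 670.6 at 3 h. Alas1, the form of the first enzyme used outside red cells, had 2853 after adrenalectomy, 3589 at 3 h, 3343 at 24 h and 3490.4 in intact mice. Its log2 ratio after adrenalectomy was -0.29, opposite in sign to that of Alas2. Fech encodes ferrochelatase, which inserts iron in the last step. It had 283 after adrenalectomy, 261 at 3 h, 239 at 24 h and 199 in intact mice, with the intact array the lowest, on a probe set made under relaxed rules. Its 1.43-fold difference after adrenalectomy did not reach 1.5-fold. Ppox, for the step before, had a log2 ratio of 0.37, and its other probe set was below the floor. The enzymes between the first and these last steps had ratios of 0.15 for Alad, -0.23 for Uros, 0.17 for Urod and -0.04 for Cpox. A second, dimmer Urod probe set gave -0.46. The mitochondrial membrane genes Abcb10, Tspo and Tmem14c had ratios of -0.02, 0.17 and -0.02. On the brightest probe sets, Abcb10 was the sole member past 1.5-fold in any of the 6 comparisons, at 1.51-fold higher at 24 h against 3 h. The dimmer Urod probe set had a log2 ratio of -1.01 or lower at 3 h against adrenalectomized mice. Against intact mice this set had -1.47 or lower at 3 h and -0.91 at 24 h. A dimmer Cpox probe set had 0.63 at 3 h against adrenalectomized mice.

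**Figure D4:**
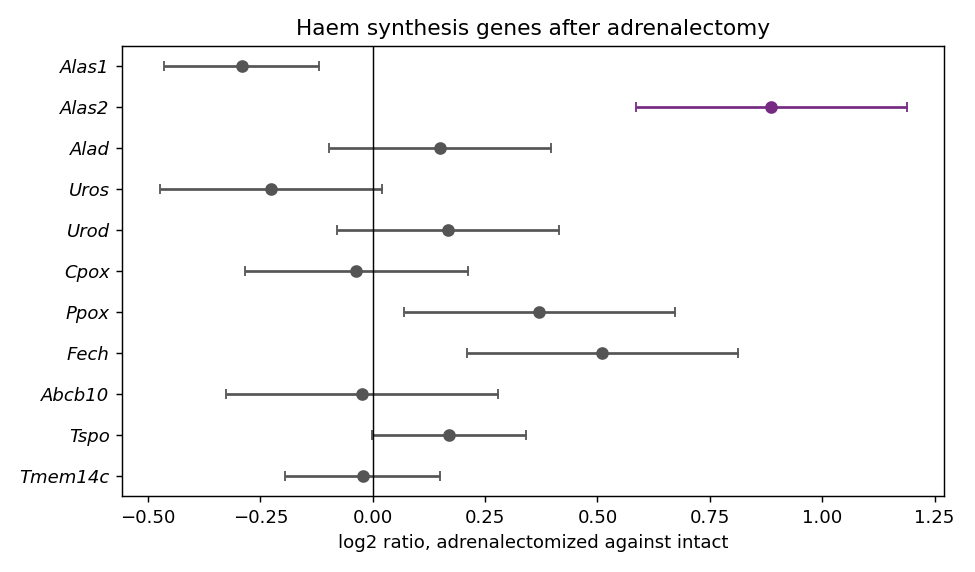
Log2 ratios of adrenalectomized against intact mice (horizontal axis) for Alas2 and the 10 other haem synthesis genes on the array, from the first enzymes at the top to membrane proteins at the bottom. Bars are 1 SD of the probe set error for genes of the same brightness. Alas2 lies at 0.89, and the other genes lie between -0.29 for Alas1 and 0.51 for Fech.

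Genes that define red cells and their precursors were mostly dim in this muscle RNA. Slc4a1, which encodes the band 3 anion exchanger of the red cell membrane, had 145 after adrenalectomy, 175 at 3 h, 134 at 24 h and 66.2 in intact mice. Because the intact signal was below the floor, it was at least 1.45-fold higher after adrenalectomy, at least 1.75-fold at 3 h and at least 1.34-fold at 24 h. Other erythroid members of the same membrane list did not share this pattern. Rhag, which encodes a partner of the Rh blood group proteins, had 112 after adrenalectomy, 115 at 3 h, 130.4 at 24 h and 113 in intact mice. Epor, the erythropoietin receptor gene, was above the floor on the intact array alone, with 56.0 after adrenalectomy, 74.3 at 3 h, 56.6 at 24 h and 128 in intact mice, and was at least 1.28-fold lower on each of the other 3. The embryonic globin genes Hbb-bh1 and Hbb-y and the membrane skeleton gene Epb42 stayed below the floor on all 4 arrays. Car1, an erythroid carbonic anhydrase gene, and Tal1 and Myb, which encode transcription factors of blood cell precursors, also stayed below it. Klf1, the erythroid factor gene that acts on beta-globin, had 55.7 after adrenalectomy, 67.9 at 3 h, 17.8 at 24 h and 107 in intact mice. Gata1 had 102 after adrenalectomy, 111 at 3 h, 166 at 24 h and 140 in intact mice on its brighter probe set, and its other probe set was below the floor throughout. For neither factor gene was the intact array the lowest. Nfe2, another factor gene of that list, had 65.5 after adrenalectomy, 116 at 3 h, 109 at 24 h and 61.5 in intact mice. It was at least 1.16-fold above intact mice at 3 h and at least 1.09-fold at 24 h. Among the 11 listed factor genes at or above the floor on all arrays, the intact array was the lowest for 1.

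In adrenalectomized against intact mice 11 members of the red cell membrane list had a median log2 ratio of -0.12, and 1 member passed 1.5-fold, Tfr2, a transferrin receptor gene, at 1.57-fold higher. Tfr2 was 2.02-fold lower at 3 h and 1.62-fold lower at 24 h against adrenalectomized mice. Ank1 and Cd24a, which are on that list, are also expressed outside red cells and were among the brighter members. For 10 red cell enzyme and reticulocyte genes the median was -0.06, with 0 past 1.5-fold in any comparison on their brightest probe sets. Dimmer probe sets of Mkrn1 and Xpo7 did pass it. At 24 h the Mkrn1 set had log2 ratios of at most -1.23 against adrenalectomized mice, -1.55 against 3 h and -1.13 against intact mice. The Xpo7 set had 0.71 at 24 h against intact mice. On the brightest probe sets the intact array was the lowest for 2 of these 10 genes, Car2 and Mkrn1. The share was 24.1% over all genes at or above the floor on all arrays. Car2 had 378 after adrenalectomy, 336 at 3 h, 310 at 24 h and 289 in intact mice. Mkrn1 had 370, 361, 378 and 309 in the same order. For 12 erythroid transcription factors the median was -0.07, with 0 past 1.5-fold after adrenalectomy. At 3 h against adrenalectomized mice Lyl1 was 1.83-fold lower and Lmo2 1.56-fold lower, though a second Lmo2 probe set had a log2 ratio of -0.14. Bach1, which encodes a haem-sensing repressor, was higher at 3 h by a log2 ratio of 0.59 on its brighter probe set and had one of -0.61 on its other. Between 24 h and 3 h, Bach1 was 1.76-fold lower on its brighter probe set, with a log2 ratio of 0.00082 on its other, and Lyl1 was 1.90-fold higher. At 24 h against adrenalectomized mice Gata1 was 1.62-fold and Ldb1, a cofactor gene, 1.58-fold higher. The Gata1 ratio came from a suffixed probe set with signals of 166 and 102, near the floor. At 3 h against intact mice Lyl1 was 2.11-fold, Lmo2 1.54-fold and the cofactor gene Cited2 1.54-fold lower, while the second Lmo2 probe set had a log2 ratio of 0.02. The median of 10 iron and haem handling genes was -0.12, with Blvra, which encodes a biliverdin reductase, 1.66-fold higher and the haem-binding plasma protein gene Hpx 1.73-fold lower after adrenalectomy. Blvra was 1.81-fold lower at 3 h than in adrenalectomized mice. At 24 h against intact mice Hpx was at least 1.76-fold lower and Hmox2, the constitutive haem oxygenase gene, 1.501-fold lower. Hmox1, the inducible haem-degrading enzyme gene, had a log2 ratio of 0.19. Beyond the adult globins, the globin list had 1 gene above the floor after adrenalectomy, Mb, which encodes the oxygen-binding myoglobin of muscle fibres, with a log2 ratio of -0.06. Mb was lower than in intact mice at 3 h and 24 h, by 1.505-fold and 1.52-fold.

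Over these 6 lists together, 54 of the 68 genes on the array were compared between adrenalectomized and intact mice, and 3 were past 1.5-fold, 2 of them higher and 1 lower. These shares of 3.70% and 1.85% lie near the 2.67% and 2.24% of all genes. At 3 h against adrenalectomized mice, 1 of 53 was higher (1.89%, against 5.07% of all genes) and 4 were lower (7.55%, against 4.75%). The 24 h array had 2 of 56 higher than after adrenalectomy alone (3.57%, against 5.49%) and 1 lower (1.79%, against 4.51%). The median log2 ratio of the 54 genes after adrenalectomy was -0.05. Scaling to ribosomal proteins, which placed the median of all genes at 0.10, turned the negative medians of the red cell enzyme, transcription factor and other globin lists positive (0.03, 0.03 and 0.05). The other globin median was also positive with a floor of 50, at 0.10, with no floor, at 0.20, and just above 0 under quantile normalization, and the transcription factor median was just above 0 with no floor. Without suffixed probe sets the red cell membrane median was 0.16, and with all probe sets averaged the haem synthesis median was -0.02 and the red cell enzyme median 0.02. Against intact mice at 3 h, 1 of 55 was higher (1.82%, against 5.7% of all genes) and 4 were lower (7.27%, against 4.25%). At 24 h 0 of 58 were higher than in intact mice, against 5.95% of all genes, and 3 were lower (5.17%, against 4.04%).

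Markers of other cells that come with blood or vessels are given beside these values, and their part in the result was not tested. The summed signal of 11 endothelial markers was 8558 after adrenalectomy, 9254 at 3 h, 8744 at 24 h and 7327 in intact mice, a sum that was lowest on the intact array. Of the 11 genes on their brightest probe sets, Pecam1, Cdh5, Cd34 and Ramp2, 4 in all, were themselves lowest there. Kdr, Tek, Icam2, Flt1, Tie1, Vwf and Eng were not. The dimmer probe sets of Flt1 and Tie1 were lowest there, at 416 and 400. Among all genes at or above the floor on all 4 arrays, the intact array was the lowest for 24.1%. All 11 reached the floor on every array, and their median log2 ratio after adrenalectomy was 0.22, with Cd34 1.68-fold higher on its brighter probe set and a log2 ratio of 0.43 on its other. The 6 platelet markers summed to 796, 768 and 813 in adrenalectomized mice without cortisol, at 3 h and at 24 h, and to 857 in intact mice. Of these, Pf4, Itgb3, Gp1bb and Gp5 were below the floor on all 4 arrays, and F2r, the 1 member compared after adrenalectomy, had a log2 ratio of -0.04. F2r alone gave 591 of the sum after adrenalectomy, 521 at 3 h, 457 at 24 h and 607 in intact mice. The sum and the median thus rest mostly on F2r and are no measure of platelets by themselves. The 13 neutrophil markers summed to 1999 after adrenalectomy, 1891 at 3 h, 2329 at 24 h and 1892 in intact mice. Of the 13, 7 were below the floor throughout, S100a9 and Ngp among them, and the median after adrenalectomy was -0.02 over 6. Csf3r alone gave 858 of the sum after adrenalectomy. On the brightest probe sets, 2 of the 6 were lowest on the intact array, Camp at 134 and Elane at 145. S100a8, Lcn2, Mpo and Csf3r were not. At 24 h Camp was 1.75-fold and Elane 1.77-fold above intact mice. At least 1.5-fold higher there were 5.95% of all genes and 11.6% of those with a mean signal under 300. The platelet median turned positive under scaling to ribosomal proteins, at 0.06, and with all probe sets averaged, at 0.23. The neutrophil median was positive under these alternatives, at 0.08 and 0.16, with a floor of 50 and without suffixed probe sets, at 0.11 in both, and just above 0 with no floor.

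The 12 B and T lymphocyte markers summed to 2702 after adrenalectomy, 3600.2 at 3 h, 4569 at 24 h and 3461 in intact mice, an order unlike that of the erythroid genes. Ighm alone gave 1848 of this sum after adrenalectomy and 2633 at 24 h. Cd3e, Cd3d, Cd3g, Cd8a, Cd2 and Cd5 were below the floor throughout. The median after adrenalectomy was -0.36 over 5, with Cd79a 2.02-fold and Cd4 2.10-fold lower. Ms4a1 went the other way on its brighter probe set, at 0.45, and had -0.68 or lower on its other. Of all genes, 2.67% were at least 1.5-fold higher after adrenalectomy and 2.24% at least 1.5-fold lower. The 14 macrophage markers summed to 7627 after adrenalectomy, 5901 at 3 h, 7155 at 24 h and 6683 in intact mice. Itgam and Msr1 were below the floor on all 4 arrays, and the median after adrenalectomy was 0.16 over 11, with Tyrobp 1.58-fold higher. The 13 hepatocyte markers, genes of plasma proteins made in liver, summed to 3300.3 after adrenalectomy, 1596 at 3 h, 1205 at 24 h and 4749.8 in intact mice. Apob, Fgb, Fgg and Ambp stayed below the floor, and the median after adrenalectomy was -0.47 over 9, with Ttr, Mup3 and Apoa2 past 1.5-fold lower, so that the intact array was highest for these genes and lowest for the globins. The fibre markers had a median of 0.03 over 13, which was -0.03 under median scaling.

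**Figure D5:**
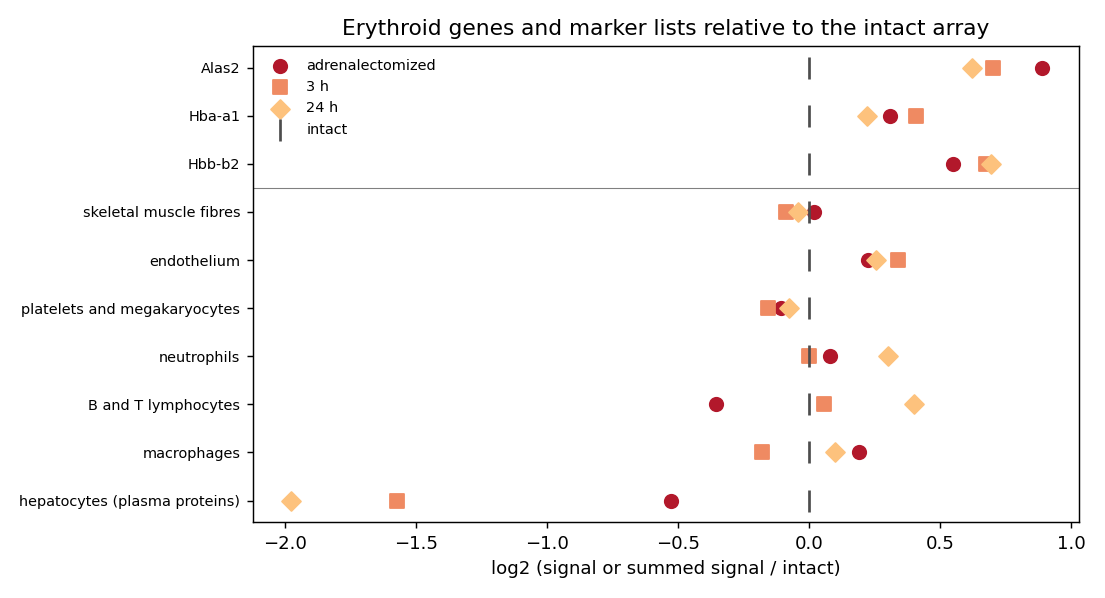
Log2 of the signal over the intact signal (horizontal axis) for Alas2, Hba-a1 and Hbb-b2, above the line, and for the summed signals of 7 marker lists, below it. Each point is 1 array. The endothelial sum lies right of the intact mark on all 3 arrays of adrenalectomized mice, the hepatocyte sum lies left of it on all 3, and the lymphocyte sum lies on both sides.

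The genes whose profile over the 4 arrays was most like the mean profile of the 3 genes were found by the Euclidean distance between log2 signals centred on each gene's own mean, among 5452 genes at or above the floor on all arrays. They were Tpsb2, a mast cell tryptase gene, at a distance of 0.024, Dnajb13 at 0.031, Ppp1r2 and Ubac2 at 0.087 and Pebp1 at 0.090. Tpsb2 had 438 after adrenalectomy, 452 at 3 h, 423 at 24 h and 298 in intact mice. Nearest to Alas2 alone were Ptpn9 at 0.14, Brix1 at 0.19 and Mpv17 at 0.19. Hbb-b2 ranked 58th and Hba-a1 174th by their distance to Alas2, at 0.32 and 0.42, so that many genes outside the family lay closer to Alas2 than the globins did. By distance to Hbb-b2, Alas2 ranked 165th and Hba-a1 216th. By distance to Hba-a1, Hbb-b2 ranked 1604th and Alas2 2853rd, at distances of 0.33 and 0.42. The distance between Alas2 and Hbb-b2 was 0.32, so the lower ranks do not mean that Hba-a1 lay much farther from Hbb-b2. A rank counts the genes that lie nearer, and the Hba-a1 profile was the flattest. Its log2 range over the 4 arrays was 0.41, against 0.69 for Hbb-b2 and 0.89 for Alas2. With 4 arrays such a likeness is a description only.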

How the data were processed

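Gastrocnemius RNA, pooled from 10 mice per group and isolated with Trizol, was hybridized to 1 MG-U74Av2 array per group, without replicates, per the labels. The deposited values are linear intensity signals, 1 per probe set, which per the labels the authors made with MAS 5.0. In the columns as deposited, the mean of the central values (2% cut at each end) was 500 to 500.6 with control probe sets included.

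From the 12488 probe sets 66 controls were left out, the arrays were scaled to a trimmed mean of 500, signals below 100 were set to 100, and log2 ratios were taken (Python 3.11.15, pandas 2.3.3). Symbols came from the platform annotation: 10833 probe sets had 1 symbol, 396 several and 1193 none. A gene was represented by its brightest probe set. No p-value was computed, since 1 array per group allows none. Genes were counted at 1.5-fold, and a gene entered a comparison when it reached the floor on at least 1 of its arrays. The error SD and calls at 2-fold were tried on simulated data, but the counts at 1.5-fold were not. The simulated error was the same for every probe set, whereas the error in these data differed with brightness. Instrument settings such as the fluidics module came from the deposited experiment files, per the file headers.

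The members and lists were chosen with earlier results of these data known. The lists were haem synthesis, other globins, red cell membrane, red cell enzymes and reticulocyte genes, erythroid transcription factors, iron and haem handling, and markers of muscle fibres, endothelium, platelets, neutrophils, lymphocytes, macrophages and hepatocytes. Named were the 3 genes, members of the first 6 lists past 1.5-fold in any comparison (at most 4 per list and comparison), and those of the marker lists past it after adrenalectomy. Some, but not all, of the members below the floor on all 4 arrays were named, and the 5 and 3 genes of the nearest profile. The haem synthesis list was given whole. Slc4a1, Rhag, Epor, Klf1, Nfe2, Myh7, Hmox1, Ank1, Cd24a, Car2, Mkrn1, Xpo7, Ms4a1 and Ighm were named after their values had been seen. So were Camp, Elane, the neutrophil genes named beside them and the globin probe sets with several symbols. Alternatives were other floors, scalings and choices of probe set.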

Additional observations from a re-analysis of the deposited data

How the results depend on the processing

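Over 9 alternatives, the 3 genes in 6 comparisons gave 156 values, of which 3 moved by more than the probe set error SD. All 3 were Alas2 against intact with a floor of 200, where its log2 ratio was 0.17 for adrenalectomized mice and 0 at both 3 h and 24 h, since 1 signal of 225 alone lay above that floor. Against intact mice, Hba-a1 and Hbb-b2 kept a positive ratio under every scaling. Their ratios ranged from 0.25 to 0.40 and from 0.49 to 0.64 after adrenalectomy. The other floors and choices of probe set could not change the ratios of these genes. Each has 1 probe set, without a suffix and far above 200 on every array. Many of the 156 values were thus fixed in advance. Alas2 gave no value without suffixed probe sets. At 3 h against adrenalectomized mice both globin ratios turned negative when arrays were scaled to ribosomal proteins, at -0.05 and -0.03, with the all-gene median at -0.17. At 24 h against 3 h, Hbb-b2 was -0.03 under median scaling.

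Over the 6 comparisons 300 to 725 genes were past 1.5-fold and 44 to 204 past 2-fold. With a floor of 50 these counts were 700 to 1155 and 193 to 411, with a floor of 200 they were 112 to 383 and 11 to 102, and with no floor 1491 to 1936 and 778 to 956. The share of 1.5-fold calls that were higher after adrenalectomy was 54.3%, against 38.4% under median scaling and 75.5% under ribosomal scaling. It was 51.7% at 3 h and 54.9% at 24 h against adrenalectomized mice, and 28.6% and 38.3% under ribosomal scaling. At 24 h against intact it was 59.6%, 46.0% under median scaling and 49.4% under quantile normalization. Of 702 list medians under the alternatives, 77 had the other sign. That of the other globins at 3 h against intact, -0.59, which was Mb alone, was 0.13 with a floor of 50 and 0.18 with no floor, where more genes entered. No paired analysis was possible because each group had 1 array. Alas2 lay near the floor, which limits its ratios.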
